A study of Homo sapiens with 12 samples.

Results

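The genes described here are those that differed from control under each of 3 media, lactate alone, acid alone and lactate with acid, so that the effect of the combined medium could be set against the sum of the effects of its parts. They were chosen as the genes listed in all 3 of the deposited tables of differential expression, in which a gene appears only if its posterior probability of equal expression was under 0.05. Of 5308 genes listed in at least 1 table, 1042 met this rule. There were 1721 genes listed for acidosis, 3087 for lactosis and 4279 for lactic acidosis.

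The cells were KKU-213A, an established human cholangiocarcinoma (bile duct cancer) line with mixed papillary and non-papillary histology, and all 4 groups of 3 libraries came from this line. Control cells were kept in low-glucose DMEM. Lactosis cells received L-lactate at 25 mM and pH 7.4, acidosis cells HEPES at 25 mM and pH 6.5, and lactic acidosis cells both agents at these concentrations and pH 6.7. The acidity of the last was set with HCl, and cells were moved into it in steps. Treated cells had been passaged at least 5 times in their medium. The labels name HEPES for the acid media alone, so the acid effect and an effect of added buffer cannot be told apart. The pH of the acid media was also not the same. A departure of the combined medium from the sum cannot be told apart from an effect of that difference. Nothing in the labels says that the replicates were separate cultures, so the p-values measure only the spread between these libraries, which may be technical.

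Tumour cells that rely on glycolysis export lactate together with protons, so lactate and acidity usually rise together in a tumour. Cells meet such conditions with several stress programmes. In the integrated stress response, phosphorylation of the initiation factor eIF2 lowers general translation while the transcription factor ATF4 is made, and ATF4 with its partners turns on genes of amino acid supply, redox balance and cell death. In the heat shock response, the factor HSF1 turns on the HSP70, HSP90 and HSP40 chaperones, which refold proteins.

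The values were length-scaled expression levels per library, whose unit is not stated, and the depth of the libraries is unknown. The effects of lactosis, acidosis and lactic acidosis were each taken against control on the log2(value + 1) scale, which understates changes of genes with low values. The interaction is the lactic acidosis effect minus the sum of the lactosis and acidosis effects. It is 0 when the effects add on this scale, positive when the combined medium left a gene higher than the sum, and negative when it left it lower. Library weights fitted to the authors' group means were 1.00 for control replicate 1 and between 0.7594 and 0.9019 for the other 11 libraries. In lactosis replicate 2 and lactic acidosis replicate 2, some skeletal and cardiac muscle genes stood out, with ACTA1 at 28.35 and 19.65 against 0.35 to 1.03 in the control libraries. Against control, MB, TNNI2 and TNNT3 went the other way. They were at 1.14, 14.87 and 6.55 in lactic acidosis replicate 2, each below every control library. Within lactic acidosis, TNNI2 and TNNT3 were highest in replicate 2, against 12.96 and 2.72 in replicate 1 and 12.37 and 2.57 in replicate 3. MB was not, at 1.5 in replicate 1. None of the 22 muscle markers was among the 1042 genes, and their part in the results was not tested. Of the 17 biliary epithelial markers, none was listed in all 3 tables and 5 were listed in at least 1. KRT19 stood at 2798.71 to 4419.27 in control, 2729.28 to 2876.09 in lactosis and 2596.21 to 3066.95 in lactic acidosis. In lactic acidosis SOX9, at 32.85 to 35.70, and CDH1, at 99.46 to 117.88, lay above their control libraries, and MUC1 and SPP1 lay below theirs.

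The interaction passed the test in 374 of the 1042 genes (35.9%) in limma with Benjamini-Hochberg adjustment at 0.05. It was positive in 208 (20.0%) and negative in 166 (15.9%), and ranged from -2.80 to 5.23. In nearly all of the 374 genes the combined medium moved a gene by less than the sum of its parts. This held for 364 genes, of which 202 were lower and 162 higher than control under both single treatments. In 7 genes the combined medium moved the gene by more than the sum, and in 3 the single treatments pointed in opposite directions. Over all 1042 genes, called or not, 958 moved by less than the sum, 78 moved by more and 6 had opposed single effects. Less than the sum was thus the usual form with or without a call. The direction of this pattern is largely fixed by how the genes were chosen. A gene had to differ from control in every medium, so one that moved by an equal amount in all 3 departs from the sum by that amount, and all 3 treatments lay on one side of control in 1034 of the 1042 genes. The interaction is also built from the 3 contrasts that the listing used, and the shared control libraries enter each of them.

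The interaction passed in 204 of the 366 genes lower under both single treatments (55.7%), against 167 of 670 genes higher under both (24.9%) and 3 of the 6 with opposed single effects, and the difference between these shares was not tested. Among the 204, the median effect was -0.82 for lactosis and -0.66 for acidosis, which sum to a median of -1.44, while the median lactic acidosis effect was -0.66. Among the 167, the medians were 0.84 and 0.64, with a summed median of 1.49 and a lactic acidosis median of 0.82. Lactic acidosis itself passed against lactosis in 29 of the 374 genes and against acidosis in 78, where 9.88% and 32.1% of all 1042 passed. In 284 of the 374 it passed against neither, and in 17 against both. Of all 1042 genes, called or not, it passed against both in 87. It passed against neither in 257 of the 366 genes lower under both single treatments and in 433 of the 670 higher. Over the 1042 genes it differed from both in the same direction in 8.16%. The test shares 1 estimate of spread over all 4 groups, so spread among control libraries enters these comparisons too. Missing the threshold here does not show equal levels. Without control replicate 1, 275 of the 1042 genes passed against lactosis and 549 against acidosis, where 103 and 335 passed with all libraries. In 114 of the 374 the lactic acidosis mean lay between control and the nearer single treatment, and in 157 between the single treatments. It lay beyond both in 101 and, in 2, PLAU and ERRFI1, on the other side of control. Over all 1042 genes, called or not, the counts in the same order were 146, 245, 649 and 2. Beyond both was thus the most frequent place over all genes.

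**Figure D1:**
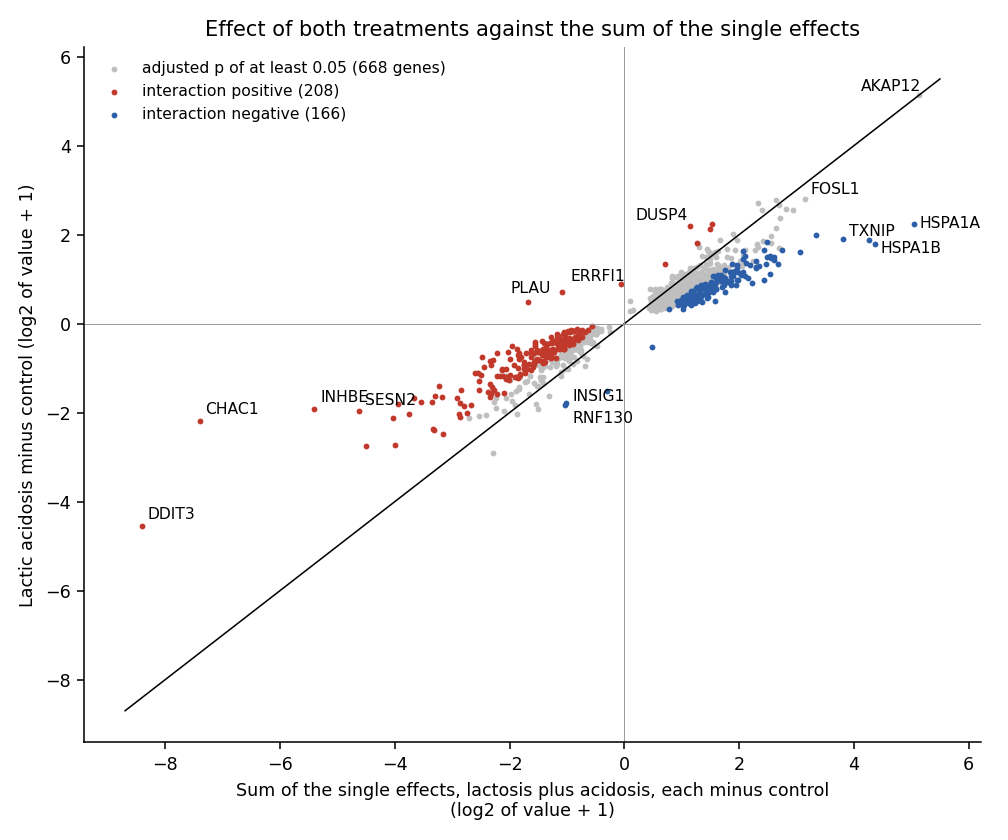
Effect of lactic acidosis (vertical axis) against the sum of the lactosis and acidosis effects (horizontal axis), both as differences from control in log2(value + 1), with 1 point for each of the 1042 genes. The diagonal line marks additive effects. Red points, with a positive interaction, lie above it mostly at negative sums, and blue points, with a negative interaction, lie below it mostly at positive sums, while PLAU and ERRFI1 have a negative sum and a lactic acidosis effect above 0.

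The genes of the integrated stress response gave the largest positive interactions. Of 41 genes on a list of ATF4 targets, 7 were listed in all 3 tables. These were CHAC1, SESN2, INHBE, DDIT3, ATF3, JDP2 and DDIT4. All 7 were lower than control under both single treatments, and all 7 passed with a positive interaction, where 55.7% of all genes lower under both were called and 20.0% of all 1042 were positive. The list had a median of 2.66 against -0.16 over all 1042 genes and 0.56 over the 366 genes lower under both, and the list median was 1.44 with a pseudocount of 5. The list was drawn up with earlier results of these data known, so its direction is not independent evidence. Larger equal drops in all 3 media also give larger interactions. Of 38 genes lower by at least 1 in all 3 media, 36 were called. The list was not set against genes with effects of like size. The 7 calls held with each of the 12 libraries left out in turn.

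Promoters are shown for a pair of these genes, CHAC1 and ATF3, because a match to the composite C/EBP-ATF response element, TGATGNAA on either strand, lies in the 250 bases before the RefSeq start site. They are given 5′ to 3′ from RefSeq on GRCh38.p14, with the match in capitals.
CHAC1 (chr15:40953221-40953470, plus strand): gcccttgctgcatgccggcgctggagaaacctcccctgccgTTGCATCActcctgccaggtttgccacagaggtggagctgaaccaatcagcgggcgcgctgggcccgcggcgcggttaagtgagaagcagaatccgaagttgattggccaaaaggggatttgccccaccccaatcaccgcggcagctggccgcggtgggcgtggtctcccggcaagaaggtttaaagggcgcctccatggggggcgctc
ATF3 (chr1:212565157-212565406, plus strand): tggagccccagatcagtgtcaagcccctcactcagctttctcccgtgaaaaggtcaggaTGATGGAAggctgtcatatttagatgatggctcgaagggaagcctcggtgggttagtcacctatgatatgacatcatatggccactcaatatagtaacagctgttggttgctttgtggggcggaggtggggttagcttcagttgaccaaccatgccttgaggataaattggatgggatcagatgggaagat
Of the 7 genes, 6 had a promoter in the table, and 2 of these 6 held the element within the window from 250 bases before to 50 after the start. The share over all 27305 promoters of that length was 3.67%, and it was 2.09% over the 815 of the 1042 genes that matched a promoter. Among genes with a positive interaction it was 7 of 145 (4.83%), and among those with a negative interaction 1 of 132 (0.758%). A match is a description of the letters and says nothing of binding.

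CHAC1 (chr15:40952962-40956519, GENCODE 29 on GRCh38), which degrades glutathione, had the highest interaction of all. Its values were 51.56, 78.56 and 54.47 in control, and 3.71, 2.99 and 3.81 in lactosis. They were 3.59, 4.29 and 4.05 in acidosis, and 11.12, 15.62 and 11.48 in lactic acidosis. The 3 treated groups lay below every control library, and the lactic acidosis libraries lay above every library of both single treatments. The single effects of -3.78 and -3.63 sum to a level below 0, while the lactic acidosis effect was -2.18, an interaction of 5.23 ± 0.23 (SE, n = 3 per group, limma adjusted p = 2.43e-10). Lactic acidosis exceeded lactosis by 1.60 (limma adjusted p = 5.09e-06) and acidosis by 1.45 (limma adjusted p = 7.44e-06).

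DDIT3 (chr12:57516588-57521737), which encodes the death-promoting factor CHOP, stood at 678.38, 480.78 and 202.53 in control. It was at 16.64, 12.95 and 12.50 in lactosis, 34.95, 29.18 and 30.43 in acidosis, and 15.06, 17.01 and 16.99 in lactic acidosis. The control libraries differed by 3.35 times among themselves, yet the lowest was above every treated library. The combined medium differed from lactosis by 0.22, which did not pass (limma adjusted p = 0.699), and differed from acidosis by -0.90, which did (limma adjusted p = 0.027). The interaction was 3.86 ± 0.41 (limma adjusted p = 9.94e-06). INHBE, an activin subunit, was at 0.33, 0.08 and 0.20 in lactosis and 0.21, 0.10 and 0.36 in acidosis, against 11.15, 7.94 and 3.47 in control. Lactic acidosis libraries were at 0.89, 0.97 and 1.42, above all 6 single-treatment libraries, and the interaction was 3.48 ± 0.35 (limma adjusted p = 6.91e-06). The sum of the single effects of INHBE gives a level of -0.814, which no gene can reach, so the positive sign was fixed. The interaction of INHBE was 6.53 with a pseudocount of 0.1 and 1.44 with one of 5.

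SESN2, a stress-induced inhibitor of the growth kinase mTORC1, had an interaction of 2.66 ± 0.26 (limma adjusted p = 6.38e-06). Its means ± SD were 37.4 ± 11.2 in control, 5.72 ± 1.05 in lactosis, 7.51 ± 1.23 in acidosis and 8.57 ± 1.02 in lactic acidosis (n = 3 each). ATF3, a stress-induced transcription factor, was at 17.8 ± 3.24, 3.49 ± 0.942, 5.22 ± 0.307 and 4.89 ± 0.242 in the same order, with an interaction of 2.00 ± 0.22 (limma adjusted p = 1.44e-05). For both genes the combined medium lay near the single treatments, and control lay apart. The 2 list members outside the ranked genes were JDP2, an AP-1 repressor, at 1.26 (limma adjusted p = 0.00297), and DDIT4, another mTORC1 inhibitor, at 0.72 (limma adjusted p = 0.00442). SLC1A4, a neutral amino acid transporter, was also low in all 3 media, with an interaction of 1.83 (limma adjusted p = 7.09e-05).

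**Figure D2:**
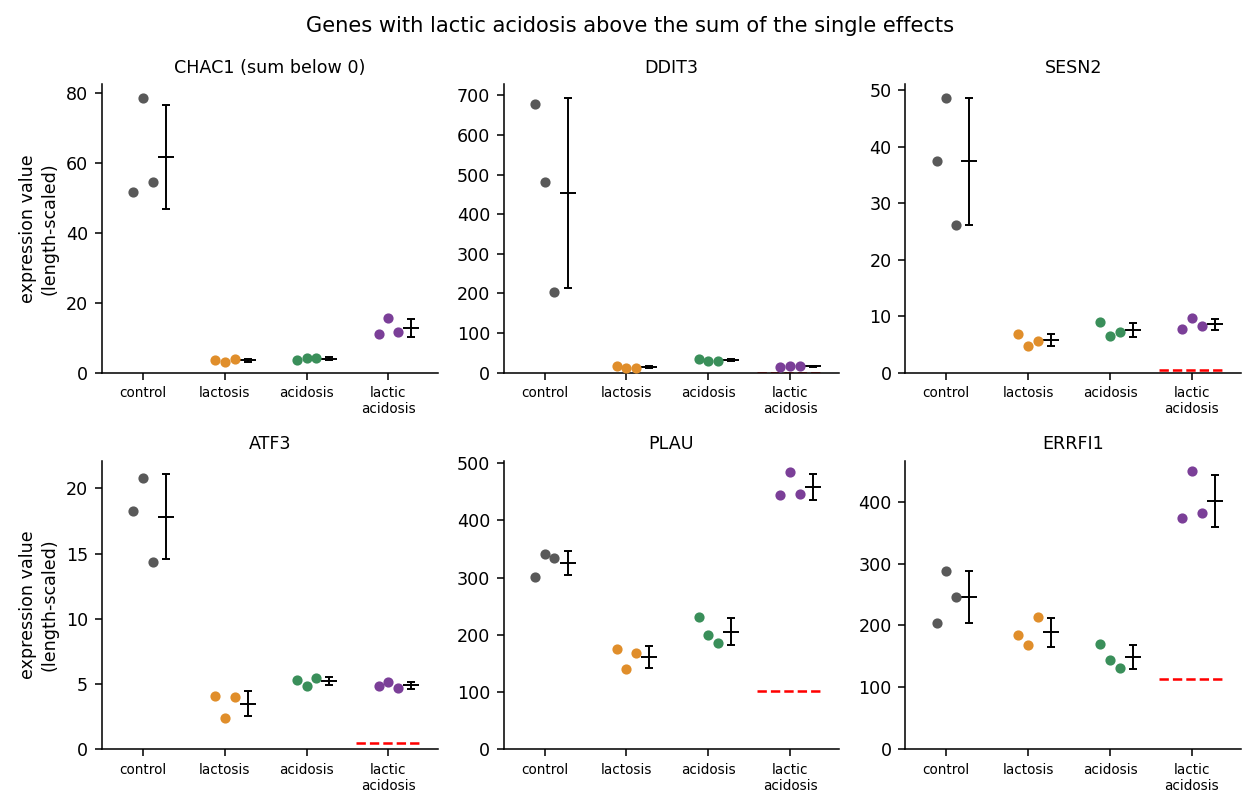
Expression value of genes with a positive interaction in each library, by group, on a linear axis from 0. Points are the 3 libraries of a group, black bars the mean ± SD, and the red dashed line the level that the sum of the single effects on the log2(value + 1) scale gives. For CHAC1 and DDIT3 that level is near or below 0 (-0.637 and 0.194), and for PLAU the lactic acidosis libraries, at 443.76 to 484.67, lie above control while both single treatments lie below it.

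In PLAU and ERRFI1 alone among the 374 genes, the combined medium lay on the other side of control from both single treatments. PLAU (chr10:73909177-73917497) encodes urokinase, a protease that activates plasminogen at the cell surface. Its values were 300.79, 341.75 and 334.32 in control, 175.86, 139.82 and 168.51 in lactosis, 231.43, 199.60 and 186.01 in acidosis, and 443.76, 484.67 and 446.31 in lactic acidosis. The 4 groups did not overlap, and the nearest libraries of the single treatments were 175.86 and 186.01. The sum of the single effects gives a level of 101.0, and the interaction was 2.17 ± 0.17 (limma adjusted p = 8.37e-07).

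ERRFI1 (chr1:8004404-8026308) encodes MIG6, a feedback inhibitor of the EGF receptor. It stood at 204.40, 288.61 and 246.12 in control, 184.27, 167.86 and 214.30 in lactosis, 170.34, 144.02 and 131.87 in acidosis, and 373.48, 448.79 and 380.84 in lactic acidosis. The lactosis and control libraries overlapped, and the lactic acidosis libraries lay above all others. The interaction was 1.80 ± 0.21 (limma adjusted p = 2.15e-05).

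The other genes among the 14 most positive were low in all 3 media. SLFN5, of the Schlafen family, had an interaction of 2.15, the poly(A)-binding protein gene PABPC3 1.92, the cyclophilin-like gene PPIAL4G 1.80, and DSG3, a desmosomal cadherin, 1.72. GPNMB, a glycoprotein of melanosomes and lysosomes, was at 8.63 ± 1.29 in control, 1.51 ± 0.352 in lactosis, 0.65 ± 0.356 in acidosis and 0.423 ± 0.172 in lactic acidosis, an interaction of 1.74, or 1.00 with a pseudocount of 5. The chemerin receptor gene GPR1 had an interaction of 1.72 (limma adjusted p = 0.0196), but its control libraries differed by 8.71 times, and it did not pass on the linear scale (limma adjusted p = 0.10) or with a pseudocount of 5 (0.053). In 25 of the 374 genes the sum of the single effects gave a level below 0, which no gene can reach, and a positive interaction is then fixed. Among the 14 most positive, this held for CHAC1, INHBE, GPNMB and GPR1, with levels of -0.637, -0.814, -0.576 and -0.628.

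Chaperone genes stood at the other end. Of 33 genes on a list of heat shock and protein folding genes, 10 were listed in all 3 tables, all 10 higher than control under both single treatments. The interaction was negative and passed in 8 of the 10, where 24.9% of all genes higher under both were called and 15.9% of all 1042 were negative. The list had a median of -1.11 against -0.32 over the 670 genes higher under both. The 8 were HSPA1A, HSPA1B, HSPA2, HSPA8, HSPE1, DNAJA1, HSPH1 and HSP90AA1, while DNAJB1 was at -0.30 (limma adjusted p = 0.126) and HSPA4 at -0.02 (limma adjusted p = 0.957). Between 6 and 8 passed with 1 library left out. The lowest control library was replicate 1 for these genes, and the ratio of the highest to the lowest control value was 2.23 for HSPA1A and 2.17 for HSPA8, against a median of 1.43 over all genes. The part of this spread in the result was not tested. Of 25 genes higher by at least 1 in all 3 media, 15 were called. The chaperone list was not set against genes with effects of like size.

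The promoters of HSPA1A and HSPA8 are shown because they hold matches to the heat shock element GAANNTTC, which HSF1 binds, before the RefSeq start site. The matches are in capitals, and the sequences are from RefSeq on GRCh38.p14, 5′ to 3′.
HSPA1A (chr6:31815293-31815542, plus strand): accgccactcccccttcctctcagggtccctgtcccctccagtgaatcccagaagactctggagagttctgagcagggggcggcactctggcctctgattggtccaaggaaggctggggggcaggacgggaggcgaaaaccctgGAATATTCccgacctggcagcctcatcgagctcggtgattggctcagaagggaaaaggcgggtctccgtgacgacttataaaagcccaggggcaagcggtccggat
HSPA8 (chr11:123062137-123062386, minus strand): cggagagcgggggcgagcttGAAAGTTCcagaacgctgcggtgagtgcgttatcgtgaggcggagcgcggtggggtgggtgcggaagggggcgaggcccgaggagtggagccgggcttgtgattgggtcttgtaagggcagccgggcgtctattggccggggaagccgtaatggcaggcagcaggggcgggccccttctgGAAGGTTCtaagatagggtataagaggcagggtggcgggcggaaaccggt
The element was in 4 of the 10 chaperone promoters, in 6.87% of all 27305 promoters and in 4.29% of the 815 matched genes. It was in 7 of 132 promoters of genes with a negative interaction (5.30%) and in 0.690% of those with a positive one. The 7 include the 4 chaperones already counted, HSPA1A, HSPA1B, HSPA8 and DNAJA1. This motif was added after the data were seen.

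HSPA1A (chr6:31815464-31817946), a stress-induced HSP70, had the most negative interaction. Its values were 51.83, 73.26 and 115.36 in control, 542.82, 485.19 and 520.84 in lactosis, 376.96, 387.65 and 371.95 in acidosis, and 378.77, 344.07 and 375.74 in lactic acidosis. Every treated library lay above every control library, and the combined medium overlapped acidosis alone. The sum of the single effects, 2.75 and 2.30, gives a level of 2547.8, and the interaction was -2.80 ± 0.28 (limma adjusted p = 6.38e-06). HSPA1B had the same order of groups, at 78.9 ± 24.8, 427.7 ± 15.6, 288.5 ± 18.6 and 264.4 ± 10.6, with an interaction of -2.59 ± 0.24 (limma adjusted p = 3.54e-06). These neighbouring genes are near-identical copies: 69.3% of the 75-base windows of HSPA1A and 73.2% of those of HSPA1B also occur in another gene, so the split of reads between them is uncertain.

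HSPA8, the constitutive HSP70, was higher by far. It stood at 825.5 ± 302.1 in control, 2362.9 ± 187.8 in lactosis, 1674.8 ± 53.5 in acidosis and 1999.0 ± 121.2 in lactic acidosis, with an interaction of -1.33 ± 0.28 (limma adjusted p = 0.0032). HSPA2, another HSP70, was at 3.73 ± 1.57, 13.7 ± 0.818, 13.4 ± 0.204 and 17.3 ± 0.728. Its combined level was the highest of the 4 groups, and still the interaction was -1.34 ± 0.24 (limma adjusted p = 0.00122), or -0.84 with a pseudocount of 5. The HSP40 cochaperone gene DNAJA1 was at -1.15 (limma adjusted p = 0.00312) and HSPE1, the mitochondrial cochaperonin, at -1.06 (limma adjusted p = 0.00234).

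**Figure D3:**
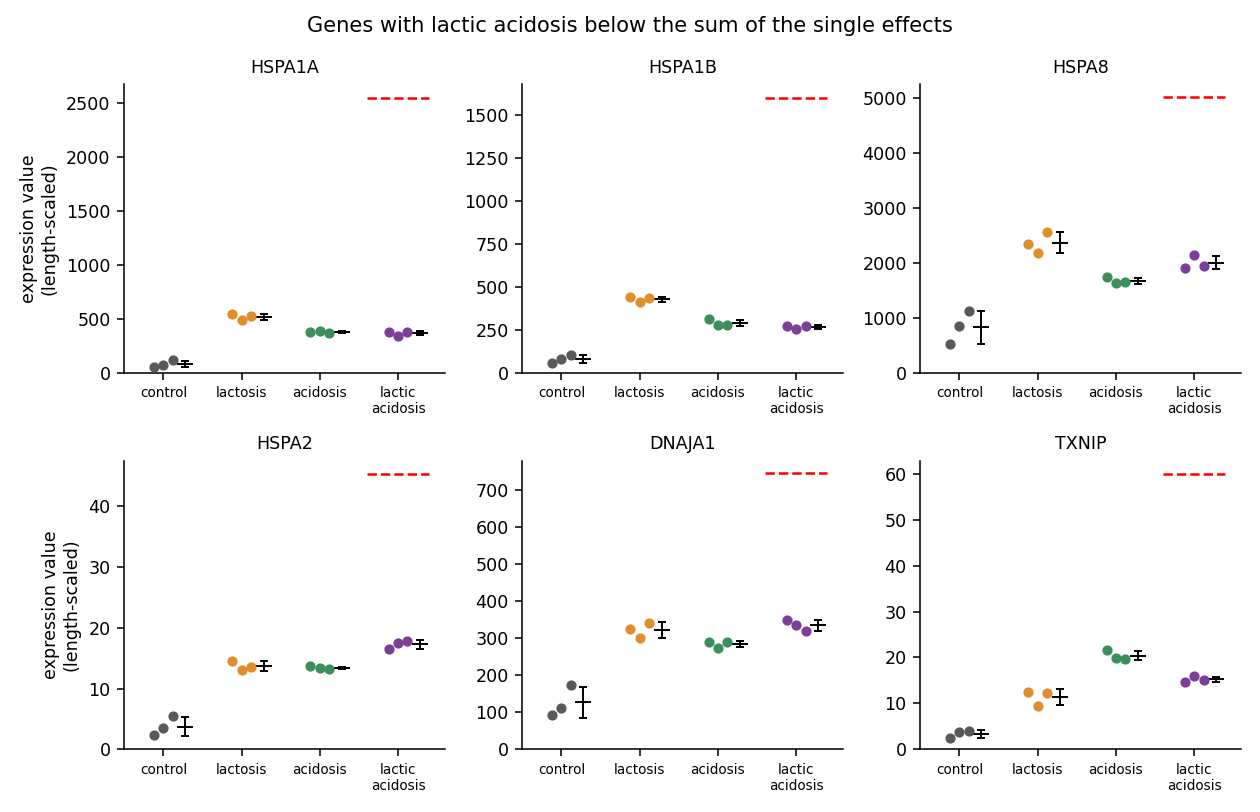
Expression value of 6 genes with a negative interaction in each library, by group, on a linear axis from 0. Points are libraries, black bars the mean ± SD of 3, and the red dashed line the level given by the sum of the single effects on the log2(value + 1) scale. In each gene all treated libraries lie above the control libraries and below the dashed line, which for HSPA1A is at 2547.8.

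Genes of DNA replication were the other group with negative interactions. Of 39 listed genes, 14 were in all 3 tables, all 14 higher than control under both single treatments. In 8 of the 14 the interaction was negative and passed, where 24.9% of all genes higher under both were called and 15.9% of all 1042 were negative. The list median was -0.88, against -0.32 over the genes higher under both, and it was -0.42 without control replicate 1. This list too was not set against genes with effects of like size. PCNA, the sliding clamp of DNA polymerase, was at 113.81, 187.15 and 296.71 in control, 433.48, 407.68 and 416.23 in lactosis, 399.06, 395.83 and 416.53 in acidosis, and 453.98, 458.67 and 431.37 in lactic acidosis. The treated groups lay close together and above control, whose libraries were spread widely, and the interaction was -1.03 ± 0.32 (limma adjusted p = 0.022). The flap endonuclease gene FEN1 was at -1.09 (limma adjusted p = 0.0129), the checkpoint adaptor gene CLSPN at -1.12 (limma adjusted p = 0.0156) and the cyclin gene CCNE1 at -1.05 (limma adjusted p = 0.022). The count rests on single libraries: it was 13 without control replicate 3, and 3 without lactosis replicate 3 or without lactic acidosis replicate 3. It was 4 without lactosis replicate 1, lactosis replicate 2, acidosis replicate 3 or lactic acidosis replicate 2, and 5 without lactic acidosis replicate 1. With libraries rescaled by the fitted weights it was 14.

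The remaining genes among the 14 most negative were of mixed function. TXNIP (chr1:145992435-145996600), which binds thioredoxin and restrains glucose uptake, was at 2.42, 3.76 and 3.97 in control, 12.51, 9.45 and 12.24 in lactosis, 21.56, 19.96 and 19.64 in acidosis, and 14.73, 15.88 and 15.05 in lactic acidosis. The 4 groups did not overlap, and the combined medium lay between the single treatments, with an interaction of -1.91 ± 0.20 (limma adjusted p = 9.94e-06). FGF5, a growth factor, also had the combined medium between the single treatments, with lactosis highest, at 0.453 ± 0.335, 5.33 ± 0.518, 1.68 ± 0.197 and 3.39 ± 0.354, an interaction of -1.44 ± 0.21 (limma adjusted p = 0.000209). The control libraries of FGF5 differed by 8.33 times, and its interaction was -2.57 with a pseudocount of 0.1 and -0.59 with one of 5. The ribosomal protein pseudogene RPL19P12 was at -2.40, the alpha tubulin gene TUBA4A at -1.44, PAQR4, of the progestin and adipoQ receptor family, at -1.42, the antiproliferative gene BTG3 at -1.31 and CD83, a surface protein of activated immune cells, at -1.13. With a pseudocount of 5 the interaction was -1.28 for RPL19P12 and -0.72 for CD83. Reads of a pseudogene such as RPL19P12 can come from its parent gene.

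Only 7 of the 374 genes moved by more than the sum, and 5 of these were higher than control. DUSP4, a phosphatase that switches off MAP kinases, was at 52.88, 50.81 and 56.33 in control, 96.32, 79.65 and 92.35 in lactosis, 80.16, 69.68 and 64.37 in acidosis, and 241.77, 253.54 and 243.83 in lactic acidosis. The combined medium lay far above all other libraries, and the single treatments overlapped each other. The sum gives a level of 118.7, and the interaction was 1.05 ± 0.16 (limma adjusted p = 0.000335). ADAM8, a membrane metalloprotease, was at 9.48 ± 0.407, 16.4 ± 0.486, 14.2 ± 0.594 and 35.8 ± 2.15, with an interaction of 0.54 ± 0.14 (limma adjusted p = 0.0105). DUSP4 and ADAM8 passed in all alternatives in which they could be tested.

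The other 3 higher genes had low values. ST3GAL1, a sialyltransferase, was at 3.57 ± 0.852, 8.56 ± 1.14, 5.07 ± 0.942 and 18.8 ± 1.14 in control, lactosis, acidosis and lactic acidosis, an interaction of 0.64 (limma adjusted p = 0.0314). ANKRD33B was at 0.69 (limma adjusted p = 0.0217) and the secretory GTPase gene RAB3B at 0.63 (limma adjusted p = 0.0112). With a pseudocount of 0.1 these 3 no longer passed in limma, with adjusted p = 0.0699 for ST3GAL1, 0.157 for ANKRD33B and 0.0633 for RAB3B. ST3GAL1 passed in 5 of the 12 fits with 1 library left out, and lost its call without control replicate 2, lactosis replicate 1 or 2, acidosis replicate 2 or 3, or lactic acidosis replicate 1 or 2 (limma adjusted p up to 0.0888). ANKRD33B passed in 8 of the 12, and lost its call without lactosis replicate 2, acidosis replicate 2 or 3, or lactic acidosis replicate 2.

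INSIG1 and RNF130 were lower than control and moved down by more than the sum. INSIG1 (chr7:155297776-155310235), which holds the sterol sensor SCAP in the endoplasmic reticulum, was at 31.53, 36.11 and 39.52 in control, 24.00, 24.31 and 22.24 in lactosis, 25.73, 26.38 and 25.79 in acidosis, and 9.01, 10.37 and 9.30 in lactic acidosis. No groups overlapped, and the combined medium was lowest, with an interaction of -0.78 ± 0.16 (limma adjusted p = 0.00267). RNF130, a ubiquitin ligase, was at 20.2 ± 1.40 in control, 16.0 ± 0.581 in lactosis and 4.99 ± 0.516 in lactic acidosis, with its acidosis libraries at 11.82 to 12.06. It had an interaction of -0.80 ± 0.15 (limma adjusted p = 0.0017). On the linear scale neither departure passed in limma (adjusted p = 0.203 for INSIG1 and 0.0862 for RNF130). Of 31 genes of cholesterol synthesis and sterol control, 5 were in all 3 tables, all lower than control. INSIG1 was the negative one and NPC1, a lysosomal cholesterol exporter, passed with a positive interaction of 0.94 (limma adjusted p = 0.00342). No other of the 5 passed, where 55.7% of all genes lower under both single treatments did.

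**Figure D4:**
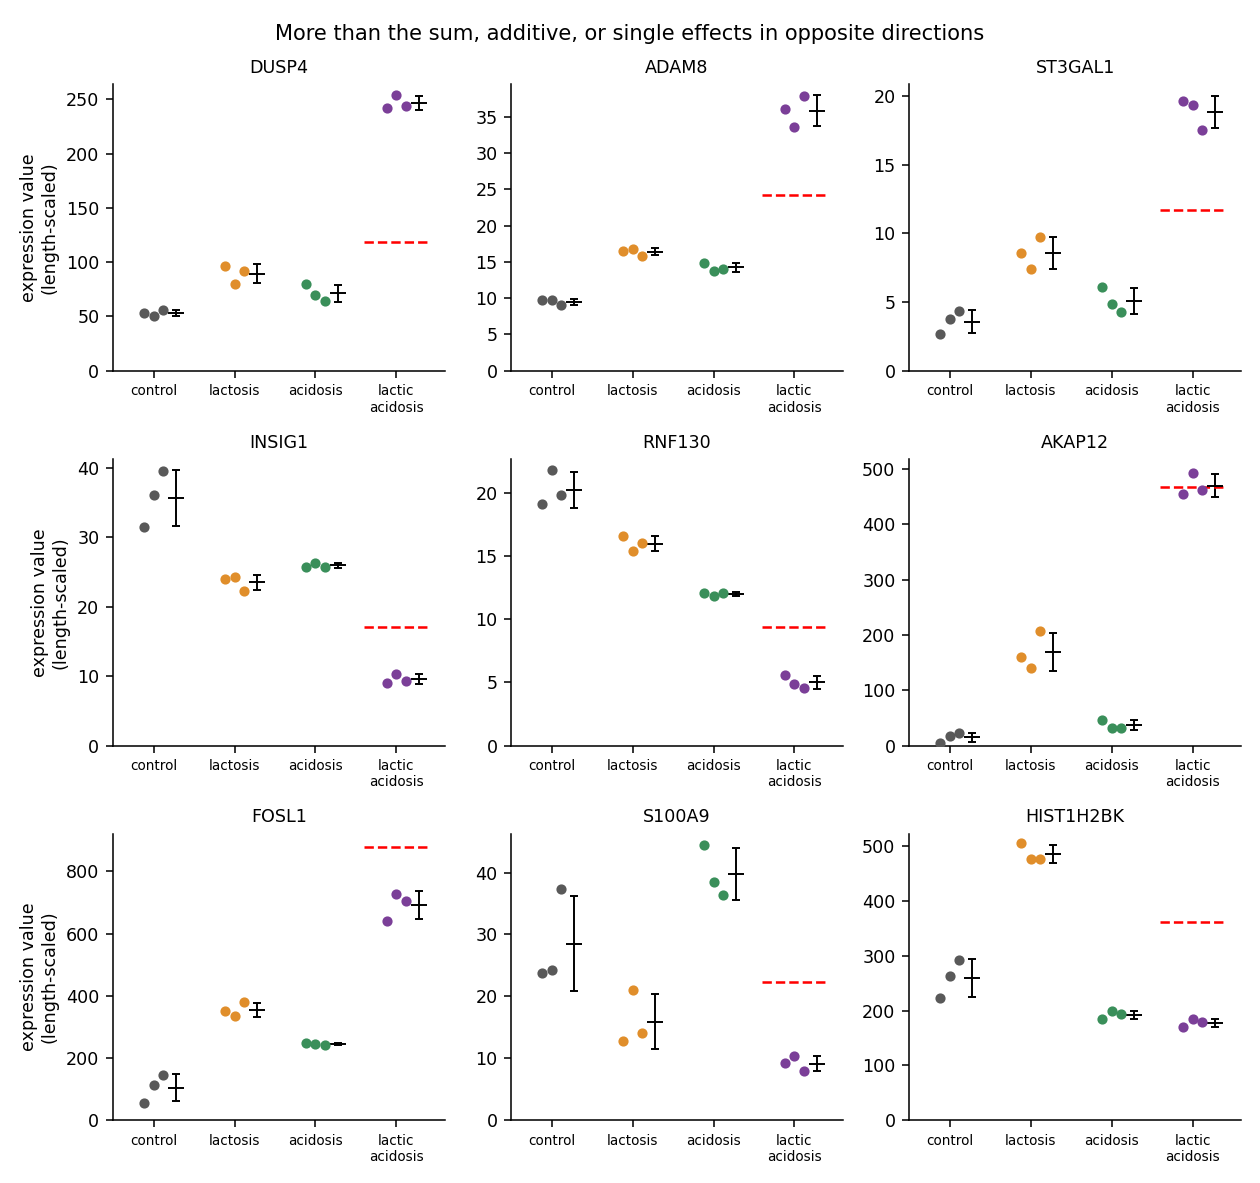
Expression value in each library, by group, for genes whose combined effect exceeded the sum, genes near additivity (AKAP12 and FOSL1) and genes with opposed single effects, on a linear axis from 0. Points are libraries, black bars the mean ± SD of 3, and the red dashed line the level given by the sum of the single effects on the log2(value + 1) scale. DUSP4 libraries of lactic acidosis lie at 241.77 to 253.54, above the dashed line at 118.7, and those of INSIG1 at 9.01 to 10.37, below it.

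In 3 genes the single treatments were opposed. S100A9, a calcium-binding inflammatory protein, was lower in lactosis and higher in acidosis. Its values were 23.84, 24.28 and 37.40 in control, 12.73, 20.96 and 14.06 in lactosis, 44.41, 38.52 and 36.39 in acidosis, and 9.26, 10.34 and 7.88 in lactic acidosis. The combined medium lay below lactosis and furthest from acidosis, although acidosis and control overlapped, and the interaction was -1.20 ± 0.27 (limma adjusted p = 0.00445). The histone gene HIST1H2BK was higher in lactosis at 485.8 ± 17.2, against 259.4 ± 34.7 in control, 192.0 ± 7.42 in acidosis and 177.8 ± 7.42 in lactic acidosis, an interaction of -1.02 (limma adjusted p = 0.000365). Of its 75-base sequence windows, 50.5% occur in another gene, so its value is uncertain. MTRNR2L8, a nuclear copy of mitochondrial sequence, was at 0.94 (limma adjusted p = 0.00939), and its reads can come from mitochondrial RNA.

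Large changes were not always at odds with additivity. In 63 genes all 3 effects were at least 1 in size, and the interaction passed in 51 of these (81.0%), in 36 of 38 lower genes and 15 of 25 higher genes. Of the 12 that did not pass, 5 were nearest to additive. AKAP12, a scaffold for protein kinase A, was at 4.78, 16.44 and 22.37 in control, 159.18, 139.73 and 206.91 in lactosis, 46.89, 32.46 and 31.06 in acidosis, and 453.89, 493.12 and 462.56 in lactic acidosis. The groups did not overlap, and the sum gives a level of 466.5 against a measured mean of 469.9, an interaction of 0.01 (95% interval -1.04 to 1.06). The other 4 were MYEOV at -0.02, the aldehyde dehydrogenase gene ALDH1A3 at -0.34, the AP-1 subunit gene FOSL1 at -0.35 and the tight junction gene CLDN11 at -0.38. A p that misses the threshold does not show that effects were additive. On the linear scale all 5 were positive and passed, at 1.62 for AKAP12, 0.77 for MYEOV, 0.57 for FOSL1, 0.48 for CLDN11 and 0.39 for ALDH1A3.

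On the linear scale, with each gene divided by its mean, 417 genes passed, of which 343 were also among the 374, all with the same sign. Of the 202 genes lower under both treatments that moved by less than the sum, 199 also passed on the linear scale. This is partly forced: in 85 of the 204 called genes lower under both treatments the sum of the single effects on the linear scale lies below 0, as it did for DDIT3, CHAC1 and SESN2, and a positive departure is then fixed. Of the 162 higher genes, 136 also passed on the linear scale.

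Other listed pathways held few of the 1042 genes, and 35.9% of all 1042 passed. Of 35 genes of ERBB ligands and MAPK feedback, 7 were in all 3 tables, and 2 passed, ERRFI1 and DUSP4, both positive. This count is near the share over all genes. Of 7 genes of ribosome biogenesis, all higher under both single treatments, 0 passed in limma with adjustment, where 24.9% of all such genes did. An unadjusted p under 0.05 was found in 2 of these 7 and in 510 of all 1042, and the list median was -0.19. Among 4 genes of glycolysis and glucose sensing, TXNIP and its relative ARRDC4 (-0.65, limma adjusted p = 0.0205) were negative, and the aldolase gene ALDOC (0.87, limma adjusted p = 0.0324) was positive. ARRDC4 lost its call on the linear scale (limma adjusted p = 0.144), with a pseudocount of 5 (0.139) and without lactosis replicate 3 or lactic acidosis replicate 3. ALDOC passed in 5 of the 12 fits with 1 library left out, and lost its call without control replicate 2 or 3, lactosis replicate 1 or 2, acidosis replicate 3, or lactic acidosis replicate 2 or 3. NLRC5, an activator of MHC class I genes, was positive at 0.99 (limma adjusted p = 0.00473) and was the 1 antigen presentation gene in all 3 tables. None of 36 interferon-stimulated genes and none of 25 hypoxia-inducible factor targets was listed in all 3.

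**Figure D5:**
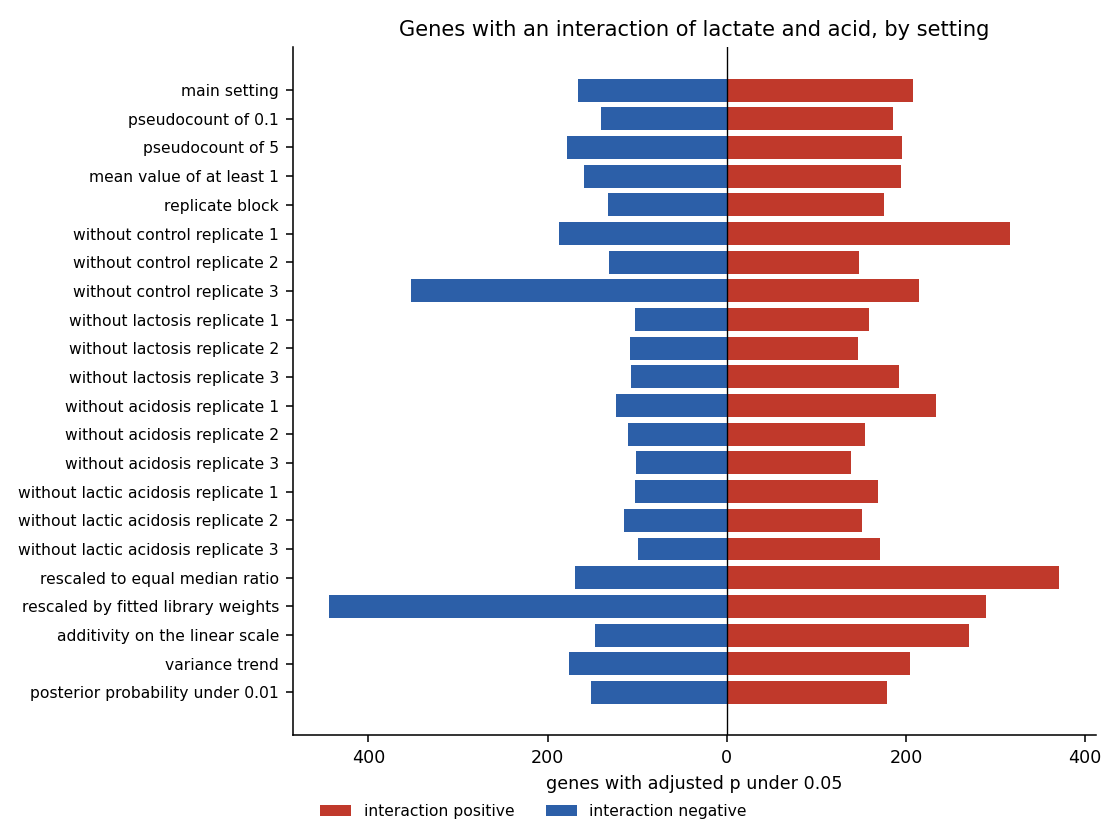
Number of genes with an interaction (adjusted p under 0.05 in limma) under the main setting and 21 alternatives, with positive interactions to the right in red and negative ones to the left in blue. The main setting has 208 positive and 166 negative genes; rescaling by fitted weights gives 289 and 444, and rescaling to an equal median ratio 371 and 169.

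The balance of positive and negative calls moved with the scaling of the libraries. As deposited, 55.6% of calls were positive. With each library rescaled to an equal median ratio, 540 genes passed, 68.7% of them positive, and the median interaction moved by 0.20 to 0.04. The ratios were taken over these same genes, where a value was present in every library. All of them were listed as different from control, so this rescaling itself pulls the median interaction toward additivity. With libraries rescaled by the fitted weights, 733 passed, 39.4% of them positive. Among the 374 genes, 353 passed again under the first and 374 under the second, all with the same sign. Control replicate 3 was the control library nearest to the treated ones in 220 of the 374 genes (58.8%) and in 688 of the 1042 (66.0%). Without it 566 genes passed, and 364 of the 374 were among them. Without acidosis replicate 3, 240 passed. Without lactosis replicate 2 or lactic acidosis replicate 2, the libraries in which some muscle genes stood out, 254 and 266 passed.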

How the data were processed

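Poly(A) RNA of 12 libraries was sequenced and aligned with STAR to hg38, per the submitters' processing notes. The authors deposited 3 tables, each holding per-library expression values (a length-scaled signal whose unit is not given in the sources used here), a posterior probability of equal expression (under 0.05 in every listed gene) and fold ratios, per the file headers. Control values were identical in the 3 tables. The 1042 genes in all 3 tables were fitted together in limma 3.58.1 (R 4.3.3) on log2(value + 1), with 1 mean per group and 12 libraries, and p-values were adjusted by Benjamini-Hochberg over all 1042. No count test was used because the deposited values are not counts. Tables were handled in Python 3.11.15 with pandas 2.3.3 and numpy 2.4.6.

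The ranked genes were the 14 most positive and 14 most negative with adjusted p under 0.05, the same sign with each library left out and a mean of at least 5 in a group. Also named, without these conditions, were up to 4 members of each list by adjusted p and the 5 large changes nearest to additivity. The 4 genes CERS4, HEY1, KLF4 and TUBB6 and the 7 genes that exceeded the sum were chosen after their values were seen. The members and lists were chosen with earlier results of these data known. On simulated data of 1042 genes, 86% of interactions of log2 size 1 and 38% of size 0.5 were recovered, and 0.2% of unchanged genes were called. The simulated noise was normal and independent, with the same SD in all groups of a gene, no lower limit and no shift of whole libraries. Genes such as PCNA had control libraries spread more widely than treated ones, so these rates may not carry over to the data. Alternatives were other pseudocounts, a filter on low values, a replicate block, 2 rescalings, the linear scale, a variance trend, a stricter listing and each library left out.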

Additional observations from a re-analysis of the deposited data

Results flagged for a closer look

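The interaction of lactate and acid passed the test in limma in 374 genes. The acid media were at pH 6.5 without lactate and 6.7 with it, and the interaction cannot be told apart from that difference. Among the 14 most positive of these genes the interaction was 5.23 for CHAC1, 3.86 for DDIT3, 3.48 for INHBE, 2.66 for SESN2, 2.17 for PLAU, 2.15 for SLFN5, 2.00 for ATF3, 1.92 for PABPC3, 1.83 for SLC1A4, 1.80 for ERRFI1, 1.80 for PPIAL4G, 1.74 for GPNMB, 1.72 for DSG3 and 1.72 for GPR1. Among the 14 most negative it was -2.80 for HSPA1A, -2.59 for HSPA1B, -2.40 for RPL19P12, -1.91 for TXNIP, -1.44 for TUBA4A, -1.44 for FGF5, -1.42 for PAQR4, -1.34 for HSPA2, -1.33 for HSPA8, -1.31 for BTG3, -1.20 for S100A9, -1.15 for DNAJA1, -1.13 for CD83 and -1.12 for CLSPN. Of these 28 genes, 27 passed under every alternative in which they could be tested, and GPR1 did not.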

How the results depend on the processing

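No gene that passed both as reported and under an alternative turned its sign, and none of the 374 did with a library left out. Of the 374 genes, 215 passed with each library left out in turn. Leaving out 1 library gave 240 to 566 genes in all, 139 to 316 positive and 99 to 352 negative. It gave 51 to 275 for lactic acidosis against lactosis and 199 to 549 against acidosis, 231 to 555 less than the sum, 5 to 19 more than it, 3 to 4 opposed and a median interaction of -0.27 to 0.00. Fitted weights gave 733 genes, 444 negative, 202 against lactosis, 716 less than the sum and 13 more. An equal median ratio gave 371 positive, 185 against lactosis, 15 more than the sum and 10 opposed. Its median of 0.04 follows largely from the rescaling itself. Genes that exceeded the sum numbered 4 with a pseudocount of 0.1 and 23 on the linear scale, and a stricter listing left 1 opposed. With the replicate number as a block, 309 genes passed, all among the 374. Same-numbered libraries correlated between -0.40 and 0.19 and only 3 of 18 pairs exceeded 0.1, which gives no sign of pairing by number. It does not show that the cultures were unpaired. Differently numbered libraries reached -0.46 (lactosis replicate 2 with acidosis replicate 1) and 0.45 (lactosis replicate 3 with acidosis replicate 1), and the cause was not tested.

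Genes that did not pass turned sign as follows. On the linear scale DUSP6 was at 0.02, ALDH1A3 at 0.39, MYEOV at 0.77, FOSL1 at 0.57 and CLDN11 at 0.48. With an equal median ratio DKC1 was at 0.02, FAS at 0.03 and MYEOV at 0.10. MYEOV was at 0.23 with a pseudocount of 5, and AKAP12 at -0.08 with one of 0.1 and -0.07 with fitted weights. With 1 library left out AKAP12 ranged from -0.40 to 0.61 MYEOV from -0.23 to 0.15, ALDH1A3 from -0.67 to 0.07, FAS from -0.25 to 0.00, FOSL1 from -0.63 to 0.04 and CLDN11 from -0.72 to 0.11, the highest of these 4 without control replicate 1. The cause of these shifts was not tested. Depth is unknown, so counting error could not be given, and 3 libraries per group limit the precision.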

Other observations

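In 17 of the 374 genes lactic acidosis passed against both single treatments. Among them were KLF4, a transcription factor of epithelial differentiation, HEY1, a Notch target, CERS4, a ceramide synthase, and TUBB6, a beta tubulin, chosen after their values were seen. KLF4 was at 72.3 ± 12.4 in control, 30.9 ± 2.38 in lactosis, 34.5 ± 2.40 in acidosis and 44.9 ± 3.38 in lactic acidosis (SD, n = 3), an interaction of 1.56 ± 0.18 (SE, limma adjusted p = 2.57e-05). CERS4 was at 17.2 ± 3.29, 2.52 ± 0.490, 9.33 ± 0.624 and 4.84 ± 0.976, so that the combined medium lay between the single treatments, and the interaction was 1.53 (limma adjusted p = 0.000175). HEY1 was lowest in the combined medium, at 2.43 ± 0.248 against 4.53 ± 0.744 in lactosis and 4.85 ± 0.966 in acidosis, and its interaction was 1.27 (limma adjusted p = 0.000392). TUBB6 was highest there, at 107.0 ± 6.21 against 80.3 ± 2.68 and 61.6 ± 5.08, with an interaction of -0.43 (limma adjusted p = 0.0432).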
